A study of Mus musculus with 2 samples.

Results

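Tip-like endothelial cells (ECs) were taken from long bones (femur and tibia) of 30-day-old mice (P30, postnatal day 30). A cell was counted as endothelial when it had at least 1 unique molecular identifier (UMI, 1 captured RNA molecule) of at least 3 of Cdh5, Pecam1, Kdr, Emcn, Tie1, Esam and Plvap and none of Ptprc, the gene of the blood cell antigen CD45. It was counted as tip-like when it also had a UMI of at least 2 of Pgf, Nos2, Cxcr4, Esm1 and Angpt2 and of fewer than 2 of the arterial genes Gja5, Sema3g, Stmn2, Fbln2 and Jag2. This gave 166 cells in Control and 279 in Dach1OE, or 445 of the 60748 cells in both tables and of the 22598 cells counted as endothelial. Since measured values chose these cells, the levels of the genes of the rule are a description, and no test was made on them.

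Control mice had the genotype label Dach1OE +/f, which is a Cre-dependent Dach1 transgene with no Cre, and Dach1OE mice had the label Apj CreERT2 - Dach1OE +/f. Apj is another name of Aplnr, the apelin receptor gene, and its promoter drives the tamoxifen-dependent Cre in the capillary endothelium. The methods also name the R26-mT/mG reporter in the crosses. All mice were C57BL/6 animals of both sexes, all received tamoxifen, on P1 and P2 per the methods, and each library pooled the cells of 2 mice. The epiphysis was removed, and cells of the blood lineages and cells with CD45 or CD117 were depleted with magnetic beads. There was 1 BD Rhapsody single-cell library per group, so that no p-value was computed and every interval covers counting error only, with no part for the spread between mice.

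Tip cells lead a growing vascular sprout. They extend filopodia towards vascular endothelial growth factor (VEGF), express the Notch ligand Dll4 and thereby hold their neighbours, the stalk cells, in a non-leading state. In long bone, sprouting takes place mainly at the metaphyseal front below the growth plate, where bulging capillary ends take the place of the slender tips seen in other organs. Of the genes of the rule, Pgf encodes placental growth factor, a ligand of the VEGF receptor Flt1, and Nos2 encodes the inducible nitric oxide synthase. Cxcr4 encodes the receptor of the chemokine Cxcl12, Esm1 the secreted proteoglycan endocan, and Angpt2 a ligand that loosens the Tie2-dependent contact of endothelium with its mural cells.

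The genes of the rule lie on different chromosomes of GRCm38, Pgf at chr12:85166635-85177790 (minus strand), Nos2 at chr11:78920787-78960254 (plus strand), Cxcr4 at chr1:128588199-128592293 (minus strand), Esm1 at chr13:113209659-113218098 (plus strand) and Angpt2 at chr8:18690263-18741562 (minus strand), in GENCODE vM21. RefSeq promoters of GRCm38.p6, from 250 bases before to 50 bases after the annotated start, were found for 3 of the 5 genes, and for Pgf the start farther 5′ of the 2 listed was taken. They are shown because these genes chose the cells together, and they were searched on both strands for ACGTG, the core of the hypoxia response element, for TGGGAA, the core of the RBPJ site of Notch signalling, and for the TATA box TATAAA. Capitals mark the TATAAA matches. The promoters lie at chr12:85177264-85177563 (minus strand) for Pgf, at chr1:128592250-128592549 (minus strand) for Cxcr4 and at chr13:113209409-113209708 (plus strand) for Esm1.
Pgf: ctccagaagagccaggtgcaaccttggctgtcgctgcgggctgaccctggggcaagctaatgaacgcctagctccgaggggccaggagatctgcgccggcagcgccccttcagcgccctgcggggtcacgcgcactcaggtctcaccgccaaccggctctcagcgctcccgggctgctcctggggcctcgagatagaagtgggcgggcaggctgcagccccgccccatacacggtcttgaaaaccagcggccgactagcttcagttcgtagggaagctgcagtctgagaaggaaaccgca
Cxcr4: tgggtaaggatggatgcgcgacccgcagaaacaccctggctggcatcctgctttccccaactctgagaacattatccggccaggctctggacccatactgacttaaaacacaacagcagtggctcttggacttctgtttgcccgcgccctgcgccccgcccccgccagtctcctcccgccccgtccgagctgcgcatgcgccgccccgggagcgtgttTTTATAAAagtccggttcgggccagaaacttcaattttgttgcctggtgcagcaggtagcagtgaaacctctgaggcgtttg
Esm1: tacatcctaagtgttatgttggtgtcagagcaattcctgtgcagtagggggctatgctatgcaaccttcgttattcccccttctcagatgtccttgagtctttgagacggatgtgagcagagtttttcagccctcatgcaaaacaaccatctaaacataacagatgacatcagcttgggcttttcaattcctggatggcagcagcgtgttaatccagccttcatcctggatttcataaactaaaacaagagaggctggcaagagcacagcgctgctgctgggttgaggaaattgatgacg
The Cxcr4 promoter held 2 overlapping TATAAA matches, 1 on each strand, and the other promoters held none. No ACGTG and no TGGGAA was in these windows, against 19.6% and 25.6% of all 32851 promoters of that length, while 13.6% held TATAAA. The GC content was 66% for Pgf, 59.3% for Cxcr4 and 46.3% for Esm1. A match or its absence describes these letters only.

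The tables held 143986818 UMIs in 28720 Control cells and 166999989 UMIs in 32028 Dach1OE cells, with 1.51 and 1.45 reads per UMI. Tip-like cells had a median of 4953.5 UMIs in Control, with a range from 782 to 21505, and of 4387 UMIs in Dach1OE, with a range from 978 to 20028. The other non-arterial ECs, 9848 in Control and 9472 in Dach1OE, had medians of 2970 and 2930.5 UMIs. A cell index of 8 Control and 14 Dach1OE tip-like cells also occurred in the other library, and no index was tip-like in both. Over all 28720 and 32028 cells, 1049 indices occurred in both libraries. Cells with UMIs both of Xist and of Y-linked genes, which a single mouse cell should not have, were 11.4% and 8.96% of tip-like cells and 4.99% and 4.68% of the other non-arterial ECs. Scrublet, a caller of cell doublets, marked 38.0% and 24.7% of tip-like cells. In the other non-arterial ECs it marked 9.55% and 9.80%.

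Tip-like cells held transcripts of mural and stromal cells in addition to those of endothelium. A marker of another cell type was counted as rare when it was found in under 10% of the other non-arterial ECs of both libraries, and a cell was counted for a type when it had at least 2 of that type's rare markers. By this measure 87 of 166 Control and 121 of 279 Dach1OE tip-like cells, 52.4% (95% interval 44.5 to 60.2) and 43.4% (37.5 to 49.4), carried markers of another type, against 16.2% and 19.5% of the other non-arterial ECs. The shares were not matched for depth, and tip-like cells were deeper. Mural markers were found in 27.7% and 25.1% of tip-like cells against 4.70% and 7.57% of the others. Marrow stromal markers were found in 26.5% and 9.32% against 2.63% and 1.82%. These are therefore called tip-like cells by their rule, and the values of the 79 Control and 158 Dach1OE cells without rare markers of another type, of which Scrublet marked 11.4% and 7.59%, are given beside those of all tip-like cells for most lists set against the other non-arterial ECs and between the libraries. Chondrocyte transcripts were not screened by this measure, since only 1 of the 8 chondrocyte markers was rare and 2 were required. These markers were lower in tip-like cells than in the other non-arterial ECs, with median log2 ratios of -1.51 and -0.64 in all tip-like cells and of -2.91 and -0.12 in those without rare markers. Other types were screened in part. Only 3 of the 8 marrow stromal and 4 of the 9 osteoblast and osteocyte markers were rare. Whether the remaining transcripts came from doublets, from attached cells or from free RNA was not tested.

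**Figure D1:**
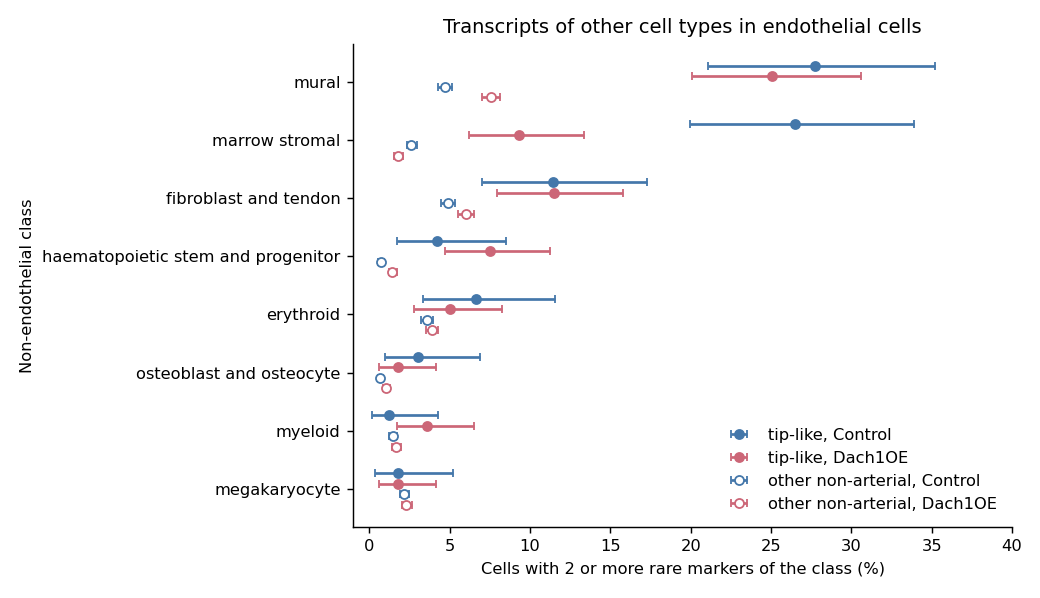
Percentage of endothelial cells (x axis) with 2 or more rare markers of each non-endothelial class (y axis), in tip-like cells (filled) and other non-arterial endothelial cells (open) of Control (blue) and Dach1OE (red), with exact binomial 95% intervals. In both libraries the mural class reached 27.7% and 25.1% of tip-like cells against 4.70% and 7.57% of the others, and the marrow stromal class 26.5% and 9.32% against 2.63% and 1.82%.

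The levels of single markers showed the same. Levels are given as the UMIs of a gene per 1000000 UMIs of the class (CPM), and a ratio was counted as past 2-fold when its log2 was at least 1 in size and the gene had at least 50 UMIs over both classes. Rgs5, a regulator of G protein signalling of pericytes, was at 1249 CPM in Control and 2813 CPM in Dach1OE tip-like cells against 153 and 398 CPM in the other non-arterial ECs, log2 ratios of 3.02 and 2.82. In the 38 Control cells that still met the rule after thinning to 1000 UMIs the ratio was -2.70 (-8.01 to -0.22). It was found in 12.7% and 23.3% of tip-like cells. Pdgfrb, the platelet-derived growth factor receptor of pericytes, was 3.14 and 2.44 higher and Notch3, a Notch receptor of mural cells, 2.43 and 2.24 higher on the log2 scale. Kcnj8, a potassium channel gene of pericytes, differed by -0.11 and -0.06. Of the 8 mural markers, 4 in Control and 5 in Dach1OE were past 2-fold higher and none lower, against 7.47% and 5.25% of all genes that were past 2-fold higher in these comparisons. Their medians were 1.18 and 1.07 beside medians over all genes of -0.03 and 0.00. No mural marker was at 0. In the cells without rare markers these medians were -0.08 and 0.05. Of the 8 mural markers 6 were rare and served to leave cells out, so that lower medians follow from that choice.

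Marrow stromal genes stood further apart. Cxcl12, the ligand of Cxcr4 and the hallmark of perivascular marrow stroma, was at 7408 CPM in Control and 2612 CPM in Dach1OE tip-like cells against 712 and 397 CPM in the others, log2 ratios of 3.38 and 2.72. It was also in 29.0% and 23.5% of the other non-arterial ECs. In tip-like cells without rare markers it was in 53.2% and 58.9%, with log2 ratios of 3.79 and 2.43. The paper also reports high Cxcl12 in ECs of post-arterial capillaries. Whether its UMIs came from ECs or from stroma was not tested. Adipoq, the adiponectin gene of the adipocyte-lineage stroma, was at 1336 and 365 CPM against 122 and 53.8 CPM, log2 ratios of 3.45 and 2.76. The leptin receptor gene Lepr differed by 2.13 and 2.15. Of the 8 marrow stromal markers, 7 in Control and 6 in Dach1OE were past 2-fold higher and none lower, against the same 7.47% and 5.25% of all genes, with medians of 2.38 and 1.83. Without cells that carried rare markers the medians were 1.93 and 0.63, and Adipoq was still in 21.5% and 6.33% of these cells. In the 8 and 22 tip-like cells left when any 2 markers of another cell type, rare or not, were enough to leave a cell out, the medians were 1.93 and -0.97 for stromal and -0.59 and -1.39 for mural markers.

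The rule was met mostly at its lower limit. In Control, 143 cells had 2 of the 5 tip genes, 19 had 3, 4 had 4 and 0 had all 5. In Dach1OE the numbers were 232, 44, 3 and 0. Just outside the rule, 1086 Control and 1393 Dach1OE cells had 1 tip gene, with median depths of 4395 and 3869 UMIs. Scrublet marked 26.6% and 17.7% of these cells, and 8.66% and 6.53% had UMIs both of Xist and of Y-linked genes. A further 108 and 193 cells had at least 2 tip genes but were left out for 2 or more arterial genes. They stood beside 815 and 1717 ECs with 2 or more arterial genes and fewer than 2 tip genes. The 166 and 279 tip-like cells stood beside 9848 and 9472 other non-arterial ECs. At least 2 tip genes were thus more frequent among ECs with 2 or more arterial genes than among the rest. The gene pairs differed between the libraries. In Control the most frequent combinations were Esm1 with Angpt2 (33 cells), Pgf with Esm1 (24 cells), and Cxcr4 with Esm1 and Nos2 with Angpt2 (17 cells each). In Dach1OE they were Nos2 with Angpt2 (51 cells), Nos2 with Cxcr4 (46 cells), Pgf with Angpt2 (30 cells) and Pgf with Nos2 (21 cells).

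Of the genes that chose the cells, Esm1 and Nos2 differed most between the libraries. A UMI of Esm1 was in 56.0% of Control and 21.1% of Dach1OE tip-like cells, at 268 CPM (237 to 303) and 90.8 CPM (76.1 to 107). Nos2 was in 36.7% and 58.1%, at 81.5 CPM (64.5 to 102) and 165 CPM (145 to 187). In the cells without rare markers Esm1 was in 46.8% and 17.7%, at 243 CPM (193 to 302) and 63.1 CPM (45.7 to 85.0), and Nos2 in 51.9% and 72.2%, at 162 CPM (122 to 211) and 242 CPM (207 to 282). The log2 ratio of Dach1OE over Control was -1.56 for Esm1 and 1.02 for Nos2 in all tip-like cells and -1.94 and 0.58 in those without rare markers. It was -1.22 and 1.68 in the other non-arterial ECs.

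**Figure D2:**
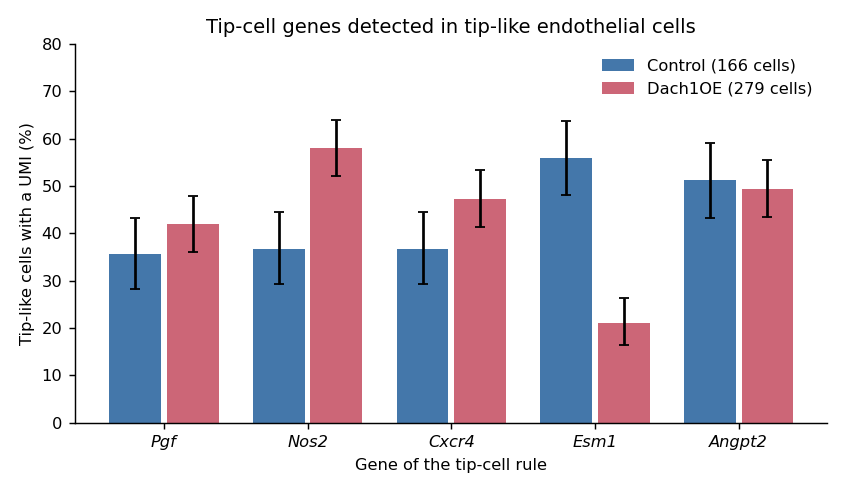
Percentage of tip-like cells (y axis) with at least 1 UMI of each gene of the tip-cell rule (x axis), in Control (blue, 166 cells) and Dach1OE (red, 279 cells), with exact binomial 95% intervals. Nos2 was in 36.7% and 58.1% and Esm1 in 56.0% and 21.1% of tip-like cells.

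The other genes of the rule were nearer to each other between the libraries. Pgf was in 35.5% and 41.9% of tip-like cells, at 83.5 CPM (66.3 to 104) and 120 CPM (103 to 139). Cxcr4 was in 36.7% and 47.3%, at 118 CPM (97.0 to 141) and 149 CPM (130 to 170). Angpt2 was in 51.2% and 49.5%, at 124 CPM (103 to 148) and 121 CPM (104 to 140). The log2 ratios of Dach1OE over Control were 0.53, 0.34 and -0.03. Without the cells that carried rare markers they were 0.05, -0.18 and -0.17, and Cxcr4, with the opposite sign there, was at 234 CPM (185 to 292) in Control and 207 CPM (174 to 244) in Dach1OE, in 51.9% of the cells of both.

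The same genes were found outside endothelium at different levels. For this comparison, non-endothelial cells were called mural-like or marrow stromal-like from at least 4 of the markers of that class and chondrocyte-like from at least 3, and myeloid-like cells also had Ptprc. Esm1 was at 535 CPM in Control and 327 CPM in Dach1OE marrow stromal-like cells, where 59.5% and 43.6% of cells had it. Cxcr4 was in 74.9% and 74.8% of myeloid-like cells, at 305 and 374 CPM. Angpt2 was at 76.5 and 86.6 CPM and Pgf at 44.4 and 53.1 CPM in mural-like cells.

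Nos2 was close to 0 in the non-endothelial classes measured. Its level was at most 0.447 CPM in mural-like, marrow stromal-like, chondrocyte-like and myeloid-like cells of either library, against 5.89 and 18.9 CPM in the other non-arterial ECs. In metaphyseal-type ECs, which had at least 2 of Apln, Aplnr, Piezo2, Ramp3 and Lamb1 and fewer than 2 tip or arterial genes, Nos2 was at 12.7 and 26.9 CPM. In arterial ECs it was at 8.11 and 11.5 CPM. Arterial ECs had the highest Cxcr4 of the ECs outside the rule, at 47.8 and 92.0 CPM.

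Transcripts of other cell types went with the gene through which a cell entered. Among tip-like cells with Esm1, 43.0% in Control and 37.3% in Dach1OE carried rare marrow stromal markers and 32.3% and 32.2% mural ones. Among those with Nos2 the stromal share was 8.20% and 2.47% and the mural share 13.1% and 9.26%. Mural markers were in 39.0% and 37.6% of cells with Pgf and in 34.1% and 37.7% of cells with Angpt2, and stromal markers in 28.8% and 13.7% and in 32.9% and 7.25%. Cells with Cxcr4 carried stromal markers in 3.28% and 3.79% and mural markers in 16.4% and 17.4%. Rare markers of haematopoietic stem and progenitor cells were in 8.20% and 9.88% of cells with Nos2 against 1.08% and 0% of cells with Esm1. They were in 8.47% and 8.55% of cells with Pgf, in 3.28% and 10.6% with Cxcr4 and in 2.35% and 5.07% with Angpt2.

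Tip-like cells with Nos2 and no Esm1 were therefore set beside those with Esm1 and no Nos2, 43 against 75 cells in Control and 147 against 44 in Dach1OE. This division was chosen after the values of these genes had been seen. The Nos2 cells had medians of 4679 and 4094 UMIs and the Esm1 cells of 4640 and 6046.5 UMIs. Rare markers of any other type were in 32.6% and 31.3% of the Nos2 cells and in 66.7% and 65.9% of the Esm1 cells. Esm1 was itself high in marrow stromal-like cells, so that choosing cells by it bears on their stromal transcripts, and the stromal values are a description of this choice. Adipoq was at 17.5 and 6.70 CPM in Nos2 cells against 2772 and 1633 CPM in Esm1 cells. Cxcl12 was at 219 and 382 CPM against 15121 and 10184 CPM. Of the marrow stromal markers, all 8 measured in Control and all 7 measured in Dach1OE were past 2-fold lower in the Nos2 cells, against 9.44% and 4.86% of all genes, with medians of -4.91 and -4.09.

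Among all tip-like cells some of the further tip cell genes were higher in the Nos2 cells, and fewer were among those without rare markers. Apln, which encodes the apelin peptide released by tip cells, was at 258 CPM in Nos2 cells and 94.8 CPM in Esm1 cells of Control, and at 358 and 66.2 CPM in Dach1OE, log2 ratios of 1.44 and 2.43. Fscn1, the actin-bundling fascin of filopodia, differed by 1.13 and 1.60, and Mcam, the adhesion molecule CD146, by 1.41 and 1.58. Dll4 was at 223 against 114 CPM and at 269 against 146 CPM, log2 ratios of 0.97 and 0.88. Of the further tip cell genes, 5 of the 18 measured in Control and 9 of the 20 measured in Dach1OE were past 2-fold higher and none lower, against 4.8% and 6.55% of all genes, with medians of 0.84 and 0.88. Of the 7 endothelial genes of the rule, 0 in Control and 2 in Dach1OE were past 2-fold higher and none lower, with medians of 0.84 and 0.89, and Cdh5, the VE-cadherin gene, differed by 0.98 and 1.20.

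**Figure D3:**
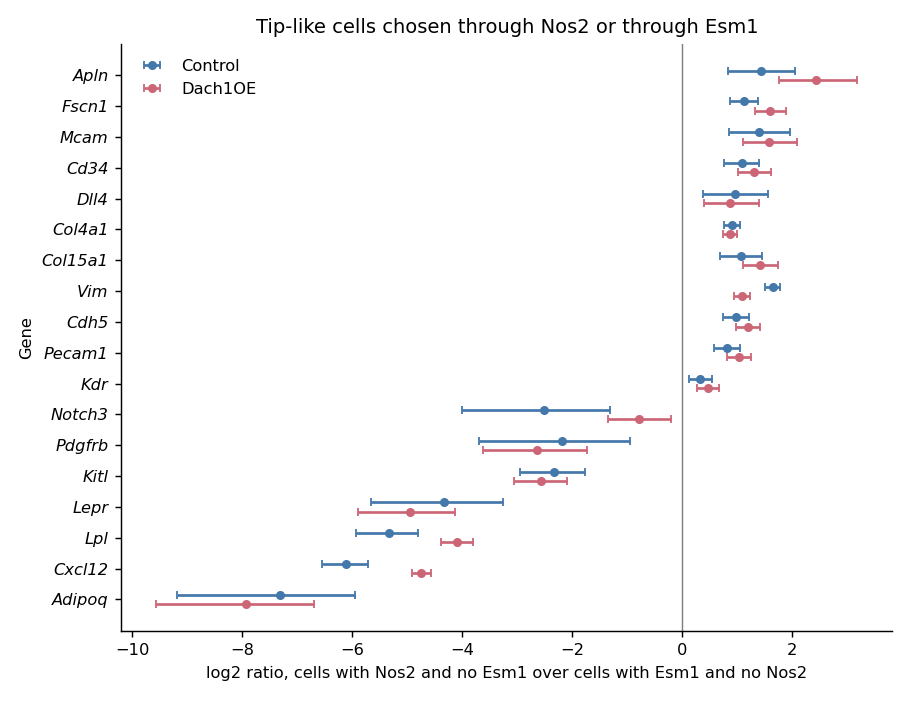
Log2 ratio of CPM (x axis) of tip-like cells with Nos2 and no Esm1 over tip-like cells with Esm1 and no Nos2, among all tip-like cells, for tip cell, endothelial, mural and marrow stromal genes (y axis), in Control (blue) and Dach1OE (red), with exact conditional 95% intervals. Apln lay at 1.44 and 2.43, while Adipoq lay at -7.31 and -7.93.

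Without the cells that carried rare markers, 29 Nos2 cells stood against 25 Esm1 cells in Control and 101 against 15 in Dach1OE. Of the further tip cell genes, 2 of the 14 measured in Control and 2 of the 18 measured in Dach1OE were then past 2-fold higher, and none and 1 lower, against 6.56% and 8.89% of all genes that were higher and 4.32% and 3.46% that were lower, with medians of 0.25 and 0.53. None of the 7 endothelial genes of the rule was past 2-fold in either library, with medians of 0.11 and 0.25, and Cdh5 differed by 0.57 and 0.47. Apln differed by 0.24 (-0.42 to 0.91) in Control and by 2.69 (1.54 to 4.15) in Dach1OE, on 6 UMIs in the Esm1 cells of the latter. Dll4 differed by -0.03 and 0.02, Fscn1 by 0.62 and 1.47 and Mcam by 1.10 and 0.85. Cxcl12 was at 221 against 9633 CPM and at 453 against 2897 CPM, log2 ratios of -5.44 and -2.68. Of the chondrocyte markers, which were not screened, all 6 measured in Dach1OE were past 2-fold higher in the Nos2 cells, with a median of 3.63. The 1 measured in Control was past 2-fold lower, at -1.14. Among all tip-like cells of Control, all 5 measured were past 2-fold lower, with a median of -3.09, against 9.44% of all genes. Among all tip-like cells of Dach1OE none of the 7 measured was past 2-fold, with a median of -0.17.

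A larger share of ECs met the rule in Dach1OE than in Control. After thinning to 1 depth, with few tip-like cells left, the interval of the difference included 0. The share was 1.52% (1.30 to 1.76) of 10937 ECs in Control and 2.39% (2.12 to 2.69) of 11661 in Dach1OE, a difference of 0.875 points (0.515 to 1.24). With every cell thinned to 1000 UMIs before the rule was applied the shares were 0.356% (0.252 to 0.488) and 0.486% (0.366 to 0.632), from 38 and 55 tip-like cells, and the difference of 0.130 points (-0.043 to 0.305) had an interval that includes 0. The difference was 1.06 points (0.377 to 1.76) within cells with Xist and no Y-linked UMI and 0.657 points (-0.0990 to 1.42) within cells with a Y-linked UMI and no Xist, where the interval includes 0. By depth it was 0.613 points (0.214 to 1.05) in cells under 2000 UMIs and 0.909 points (0.378 to 1.45) from 2000 to 4000. It was 1.31 points (0.409 to 2.22) from 4000 to 8000 and 0.281 points (-1.33 to 1.85) above. Among ECs without rare markers of another type the shares were 0.867% and 1.69%, a difference of 0.825 points (0.503 to 1.15).

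The share depended on which genes were counted. With Nos2 left out of the rule, and at least 2 of the other 4 genes required, the shares were 1.13% and 1.29%, a difference of 0.161 points (-0.127 to 0.448). With Esm1 left out they were 0.768% and 1.98%, a difference of 1.21 points. Leaving out Pgf, Cxcr4 or Angpt2 gave differences of 0.601, 0.472 and 0.564 points. Of these 5 rules, only the one without Nos2 gave an interval that includes 0, and Nos2 was also higher in the other non-arterial ECs of Dach1OE, at 18.9 against 5.89 CPM. How many cells the mice held cannot be told from shares of captured cells.

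Beyond the genes of the rule, 24 further genes known from tip cells of other vascular beds were compared with the other non-arterial ECs of the same library. In Control 6 and in Dach1OE 5 of them were past 2-fold higher and none lower, against 7.47% and 5.25% of all genes that were past 2-fold higher in these comparisons. The medians were 0.71 and 0.64. In cells without rare markers 16 and 9 were past 2-fold higher and none lower, with medians of 1.27 and 0.98, against 12.6% and 4.9% of all genes.

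Igfbp3, a secreted binding protein of insulin-like growth factors, was at 365 CPM in Control and 295 CPM in Dach1OE tip-like cells against 55.2 and 37.5 CPM in the others, log2 ratios of 2.73 (2.56 to 2.89) and 2.98 (2.82 to 3.13). Unc5b, a netrin receptor of tip cells, was at 137 and 231 CPM against 36.8 and 62.0 CPM, log2 ratios of 1.90 in both libraries. Igfbp3 and Unc5b were the only genes of this list past 2-fold in both libraries besides Adm, which encodes the vasoactive peptide adrenomedullin and differed by 1.46 and 1.11 on 21 and 31 UMIs. Apln was at 126 against 66.3 CPM in Control and at 262 against 109 CPM in Dach1OE, log2 ratios of 0.92 and 1.26, and lay past 2-fold in the latter only. Dll4 was at 150 against 114 CPM and at 224 against 125 CPM, log2 ratios of 0.40 and 0.84.

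Other members of the list differed by less or in 1 library. Kcne3, a potassium channel subunit, differed by 1.62 and 0.72, Lamb1, a laminin chain, by 1.69 and 0.85, and Ednrb, an endothelin receptor, by 1.17 and 0.59. In the 55 Dach1OE cells that met the rule after thinning to 1000 UMIs Kcne3 and Ednrb were at -0.70 and -0.49. Pdgfb, the growth factor that draws pericytes to sprouts, differed by 0.62 and 0.80, Cd34, a sialomucin of tip cells, by 0.87 and 0.65, Fscn1 by 0.41 and 0.64 and Mcam by 0.67 and 0.77. Plxnd1, a semaphorin receptor, differed by -0.07 and 0.04. In cells without rare markers the ratios were larger for Apln (1.90 and 1.65), Dll4 (0.96 and 1.10) and Igfbp3 (3.49 and 3.21).

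**Figure D4:**
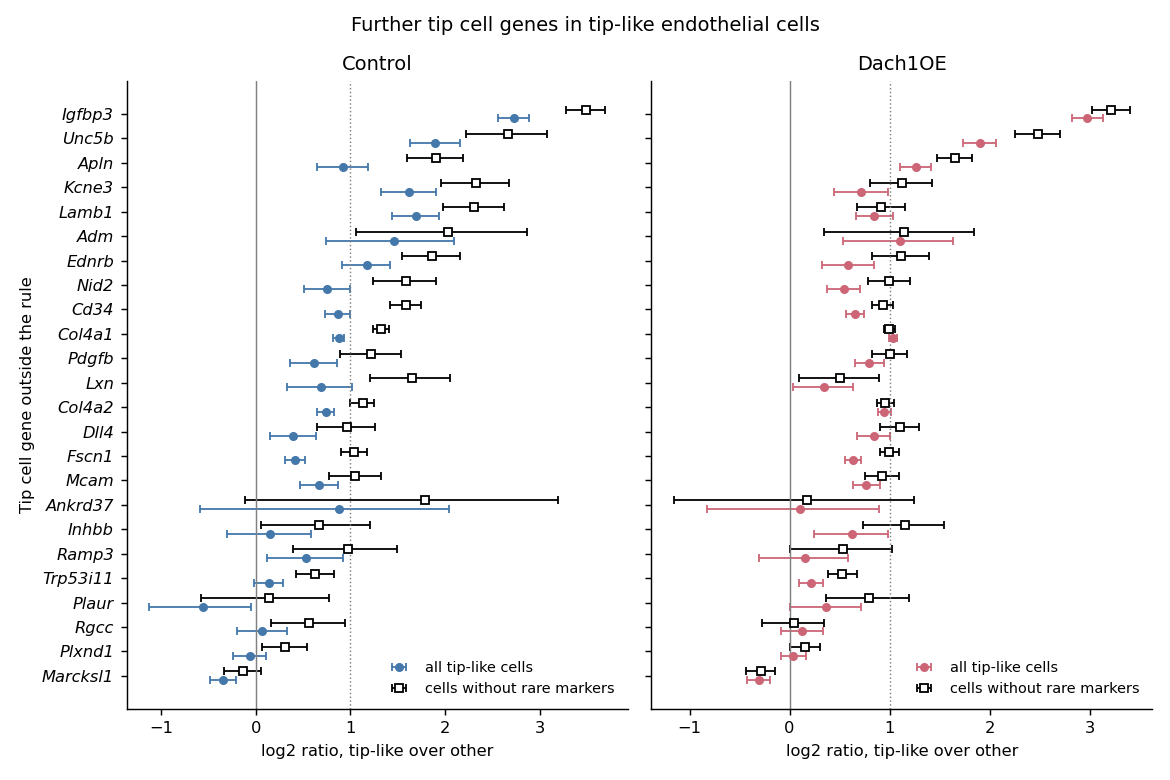
Log2 ratio of CPM (x axis) of tip-like cells over other non-arterial endothelial cells for 24 tip cell genes outside the rule (y axis), in Control (left) and Dach1OE (right), for all cells (coloured circles) and for cells without rare markers of another type (open squares), with exact conditional 95% intervals and a dotted line at 2-fold. Igfbp3 lay at 2.73 and 2.98 and Unc5b at 1.90 in both libraries, and Plxnd1 lay near 0.

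Genes of the vascular basement membrane and of its breakdown were partly higher. Of 26 genes, 7 in Control and 5 in Dach1OE were past 2-fold higher and none lower, against 7.47% and 5.25% of all genes, with medians of 0.35 and 0.43. In cells without rare markers 11 and 3 of 26 were past 2-fold higher and none lower, against 12.6% and 4.9% of all genes, with medians of 0.71 and 0.32. The type IV collagen chain Col4a1 was at 2474 and 3447 CPM in tip-like cells against 1349 and 1679 CPM, log2 ratios of 0.87 and 1.04, and Col4a2 differed by 0.74 and 0.95. The linking collagens Col15a1 and Col18a1 were past 2-fold in both libraries, at 1.57 and 1.59 and at 1.89 and 1.83, and the laminin chain Lama4 differed by 1.31 and 0.77. Timp3, an inhibitor of metalloproteinases bound to matrix, differed by -0.51 and -0.38.

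Genes of the Notch pathway differed among themselves. Of 15 genes 3 in Control and 4 in Dach1OE were past 2-fold higher and none lower, against 7.47% and 5.25% of all genes, with medians of 0.14 and 0.23. The median in Dach1OE was -0.022 (-0.49 to 0.56) in cells with a Y-linked UMI and no Xist. Among cells without rare markers 3 of the 13 measured in Control and 2 of the 13 in Dach1OE were higher and 1 and 0 lower, against 12.6% and 4.9% of all genes that were higher, with medians of 0.23 and 0.03. Of the target genes switched on by Notch, the repressor genes Hey1 and Heyl differed by 2.26 and 2.45 and by 2.86 and 2.64, and Hey2 by 1.81 and 1.78 on 4 and 12 UMIs. The targets Nrarp and Hes1 differed by less, by 0.65 and 0.45 and by 0.39 and -0.05. In cells without rare markers Hey1 differed by 3.76 and 2.87 and Heyl by 2.59 and 2.70 on 5 and 12 UMIs. The stalk cell genes Flt1, a decoy receptor for VEGF, and Tek, the Tie2 receptor gene, differed by -0.81 and -0.74 and by -0.84 and -0.99, with Flt1 at 0.20 in the 38 Control cells that met the rule after thinning. The VEGF receptor gene Kdr, one of the endothelial genes of the rule, differed by -0.54 and -0.39, with 0.069 in the 55 Dach1OE cells that met the rule after thinning, and Aplnr by -0.45 and -0.36, with 0.24 in Control in cells with a Y-linked UMI and no Xist.

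Arterial markers that the rule did not use were higher as well, 5 of the 9 measured in Control and 5 of the 8 measured in Dach1OE past 2-fold and none lower, against 7.47% and 5.25% of all genes, with medians of 1.56 and 1.26. In cells without rare markers, 4 of 8 were past 2-fold higher and 2 lower in Control, and 3 of 8 higher and 1 lower in Dach1OE, against 12.6% and 4.9% of all genes that were higher, with medians of 1.13 and 0.66. In the 8 and 22 tip-like cells left when 2 markers of another cell type, rare or not, were enough to leave a cell out, the median in Dach1OE was -0.04 (-1.63 to 1.73). Cxcr4 and Esm1, which helped to choose the tip-like cells, were themselves higher in arterial ECs than in the other non-arterial ECs. Cxcr4 was at 47.8 and 92.0 against 8.20 and 10.6 CPM, and Esm1 at 49.6 and 12.8 against 16.8 and 7.23 CPM. Choosing cells by these genes thus bears on their arterial markers, and the arterial values are a description of this choice. Gja4, a gap junction gene of arteries, was at 70.1 against 7.84 CPM in Control and at 229 against 35.6 CPM in Dach1OE. Its log2 ratios were 3.16 and 2.68. Efnb2, the arterial ephrin ligand, differed by 0.80 and 1.43. Outside this list, Cav1, the caveolin gene, differed by 1.30 and 1.44. Sema7a, a membrane-anchored semaphorin, differed by 2.05 and 1.26, and Ackr3, a scavenger receptor for Cxcl12, by 1.80 and 1.28. Vim, the intermediate filament vimentin, was at 2867 and 2989 CPM against 934 and 1213 CPM, log2 ratios of 1.62 and 1.30. Without the cells that carried rare markers the ratios were 1.65 and 1.72 for Efnb2, 2.38 and 1.69 for Cav1, 3.10 and 1.46 for Sema7a, 2.80 and 1.58 for Ackr3 and 2.58 and 1.59 for Vim.

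Sinusoidal markers were lower. Of 12, 7 in Control and 6 in Dach1OE were past 2-fold lower and none higher, with medians of -1.06 and -0.999, against 5.83% and 5.15% of all genes that were past 2-fold lower. The scavenger receptor gene Stab2 was at 334 against 709 CPM in Control and at 150 against 426 CPM in Dach1OE, log2 ratios of -1.09 and -1.51. Stab1 differed by -0.72 and -0.92, the mannose receptor gene Mrc1 by -1.10 and -1.43 and the metalloproteinase gene Adamts5 by -1.24 and -1.55. In cells without rare markers 8 of 12 were past 2-fold lower in both libraries, against 8.37% and 6.72% of all genes, with medians of -1.32 and -1.34.

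Metabolic and proliferation genes were compared in the same way. Of 27 genes of hypoxia and glycolysis, Pdk1, which holds pyruvate back from mitochondria, was past 2-fold lower in Control and Hif3a past 2-fold higher in Dach1OE on 9 UMIs, with medians of -0.12 and -0.10. None of 24 cell cycle genes was past 2-fold in either library, with medians of 0.35 and 0.12. The medians were 0.090 and 0.039 for hypoxia and glycolysis and -0.095 and 0.36 for the cell cycle in cells without rare markers. Of all genes, 7.47% in Control and 5.25% in Dach1OE were past 2-fold higher and 5.83% and 5.15% lower, so that counts of 0 and 1 in lists of this size do not set these genes apart from the rest. A UMI of Mki67 or Top2a was in 18.1% and 22.6% of tip-like cells against 12.5% and 16.7% of the others. With the UMIs of these same cells thinned to 1000 each, Mki67 was in 3.64% (1.35 to 7.75) and 3.97% (1.999 to 6.994) of tip-like cells and in 3.34% and 4.80% of the others, and Top2a in 4.24% (1.72 to 8.55) and 7.22% (4.47 to 10.9) against 4.32% and 6.09%.

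Among the 15 genes furthest above the other non-arterial ECs in both libraries, outside the rule, were Il7, Fgf7, Grem1, Kng1, Aldh1a2, Slc26a7, Rgs5, Dpep1, Pla1a, Adipoq, Gdpd2, Sfrp1, Igfbp3 and Cxcl12. Il7, the cytokine of lymphocyte development made by marrow stroma, was at 49.5 against 5.15 CPM in Control and at 22.9 against 2.44 CPM in Dach1OE, log2 ratios of 3.26 and 3.23. Grem1, an inhibitor of bone morphogenetic proteins made by skeletal stroma, differed by 3.12 and 3.13, and the growth factor gene Fgf7 by 3.23 and 3.46. Kng1, Aldh1a2, Slc26a7, Dpep1, Pla1a, Gdpd2 and Sfrp1 had log2 ratios from 2.74 to 3.44. Igfbp3 was in 56.0% and 38.0% and Cxcl12 in 69.3% and 58.1% of tip-like cells. The others named here were in at most 44.0% of the tip-like cells of either library, the value of Adipoq in Control.

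When cells with rare markers were left out, a setting added after the data had been seen, the 15 genes furthest above by the same rule included Agt, Grem1, Igfbp3, Gja4, St8sia6, Ablim3, Hey1, Tmem178, Cxcl14, Thy1, Gm12002, Mfsd4a, Loxl1 and Sec14l2. Some of these rested on few cells. All 13 Mfsd4a UMIs of Control came from 1 cell, 86.0% of the Thy1 and 64.7% of the St8sia6 UMIs of Control came from 1 cell each, and a single cell held 62.5% of the Mfsd4a and 58.9% of the Cxcl14 UMIs of Dach1OE. Tmem178 and Gm12002 had 4 and 6 UMIs in Control. Igfbp3 and Grem1 were in both lists. Gja4 was at 4.34 and 3.15 and Hey1 at 3.76 and 2.87 on the log2 scale. The 10 genes furthest below with all cells were Col10a1, Prg4, Tmem40, Prg2, Tnmd, Npas4, Gata3, Ccdc69, Clec1b and Cilp. All 10 had few UMIs in tip-like cells, from 0 to 28 in Control and from 0 to 167 in Dach1OE, with the largest numbers for Col10a1, the collagen of hypertrophic chondrocytes.

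All tip-like cells, those with rare markers of other types included, were also set beside metaphyseal-type and arterial ECs, both of which were chosen by their own marker genes. Apln, Ramp3 and Lamb1, which chose the metaphyseal-type ECs, are also among the further tip cell genes, so that the values of these genes and the list's counts and median against that class depend on the choice. Against 2640 metaphyseal-type ECs of Control, 3 of the 23 genes measured were past 2-fold higher and 1 lower, with a median of 0.06, and in Dach1OE 3 of 24 were higher and 1 lower, with a median of 0.11, against 5.31% and 4.84% of all genes that were higher and 4.26% and 2.74% that were lower. Sinusoidal markers had medians of -0.44 and -0.76 and arterial markers of 0.99 and 1.17 in that comparison. Against 815 arterial ECs of Control none of 22 tip cell genes was past 2-fold higher and 1 was lower, with a median of -0.29, against 4.46% of all genes that were higher. Against 1717 arterial ECs of Dach1OE, 5 of 24 were higher and 1 lower, with a median of 0.35, against 4.97% of all genes. The arterial markers were past 2-fold lower than in arterial ECs in 7 of 10 and 9 of 10, against 5.4% and 4.76% of all genes, and mural markers past 2-fold higher in 7 of 8 and 8 of 8.

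Dach1, the transcription factor gene switched on in Dach1OE, checked the labels. It was in 4 of 166 Control tip-like cells, or 2.41%, and in 123 of 279 Dach1OE tip-like cells, or 44.1%, at 4.12 CPM (1.12 to 10.6) and 154 CPM (135 to 175). The log2 ratio was 5.22 (3.85 to 7.11). In the other non-arterial ECs it was in 1.68% and 33.5%, and in chondrocyte-like cells, which should lack the Cre and had median depths of 8223 and 8248 UMIs, in 2.46% and 3.28%. Myeloid-like cells had it in 18.2% and 17.2%. With the UMIs of these same cells thinned to 1000 each, and shallower cells left out, Dach1 was in 0 of 165 Control tip-like cells, where the exact interval reached 2.21%, and in 15.5% (11.5 to 20.3) of 277 in Dach1OE. In the thinned other non-arterial ECs it was in 0.469% in Control and 14.9% (14.2 to 15.7) in Dach1OE. UMIs of the transgene and of the gene at chr14:97786853-98169765 cannot be told apart in these counts. Gt(ROSA)26Sor, the RNA of the locus that holds the transgene, was at 15.5 CPM in Control and 162 CPM in Dach1OE, a log2 ratio of 3.39.

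Within tip-like cells, 2.7% of 7008 genes were past 2-fold higher and 2.67% past 2-fold lower in Dach1OE than in Control. The shares were 3.48% and 3.1% in the cells without rare markers, and 1.5% and 1.89% in the other non-arterial ECs. Of the 24 further tip cell genes, 2 of the 23 measured were past 2-fold higher and none lower, with a median of 0.22, against 0.30 in the other non-arterial ECs. In the cells without rare markers none of the 22 measured was past 2-fold in either direction, with a median of 0.02. The genes past 2-fold in all tip-like cells were Apln, at 126 CPM in Control and 262 CPM in Dach1OE, a log2 ratio of 1.06 (0.76 to 1.36), and Pdgfb, at 141 and 285 CPM, a log2 ratio of 1.01 (0.73 to 1.30). Unc5b differed by 0.75. Among cells without rare markers Apln differed by 0.54 (0.21 to 0.87), Pdgfb by 0.76 and Unc5b by 0.87. The other non-arterial ECs differed in the same direction, by 0.72 for Apln, 0.83 for Pdgfb and 0.75 for Unc5b. In the 8 Control and 22 Dach1OE tip-like cells left when 2 markers of another cell type, rare or not, were enough to leave a cell out, the ratios were -1.26 for Apln and -0.33 for Pdgfb, and with at least 3 tip genes Pdgfb was at -0.19.

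The genes furthest higher in Dach1OE, beside Dach1 and Gt(ROSA)26Sor, were Scgb3a1, Madcam1, Car4, Vwf, Tcf15, Mpo, Prss34, Mest, Ccnd1 and Mcpt8. Scgb3a1, a secretoglobin, was at 2.06 CPM in Control and 197 CPM in Dach1OE, a log2 ratio of 6.58 (4.71 to 9.63) on 2 Control UMIs. Madcam1, an adhesion molecule for lymphocytes, had 1 UMI in Control and 78 in Dach1OE, a log2 ratio of 5.67 (3.15 to 10.99). Car4, a carbonic anhydrase of capillary surfaces, had 110 UMIs in Dach1OE and 2 in Control, both from 1 cell. Its log2 ratio was 5.16 (3.28 to 8.23). Vwf, the von Willebrand factor gene, had a log2 ratio of 3.70. Tcf15, a transcription factor of capillaries that take up fatty acids, had a log2 ratio of 3.04. The imprinted gene Mest differed by 2.07, and Ccnd1, the cyclin D1 gene, by 1.90 at 197 and 733 CPM. The directions were shared by the other non-arterial ECs. Their log2 ratios were 5.04 for Scgb3a1, 2.68 for Madcam1, 2.23 for Vwf, 2.79 for Tcf15, 1.31 for Mest and 1.41 for Ccnd1. Car4 was at 6.21 in these cells, on 7 Control UMIs.

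Some of the genes on this list belong to blood cells and went with few cells. Prss34 and Mcpt8, proteases of basophils, differed by 2.36 and 1.84 in all tip-like cells but by -0.78 and -2.03, on few UMIs, in the cells without rare markers and by 0.11 and -0.08 in the other non-arterial ECs. Mpo, the myeloperoxidase gene, differed by 2.59, and a single cell held 66.7% of its UMIs in Control and 48.2% in Dach1OE. Among the lower genes, Ppbp and Pf4, chemokines of platelets, differed by -2.92 and -2.34, and a single Control cell held 87.2% and 75.7% of their Control UMIs. They differed by -0.39 and 0.80 in the cells without rare markers, on 18 and 9 Control UMIs. Hbb-bt, a haemoglobin chain, differed by -2.37, and a single cell held 34.7% of its UMIs in Control and 41.4% in Dach1OE. It differed by 0.11 in the other non-arterial ECs and had 2 and 0 UMIs in the cells without rare markers.

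Sinusoidal and stromal genes were lower in the tip-like cells of Dach1OE. Beside Ppbp, Pf4 and Hbb-bt, the genes furthest lower were Gpm6a, Dnase1l3, Serpina3f, F8, Il13ra2, Mmrn1, Gas6, Adipoq and Cd36. Gpm6a, a membrane glycoprotein gene, was at 274 CPM in Control and 30.9 CPM in Dach1OE, a log2 ratio of -3.15 (-3.63 to -2.69), and Dnase1l3, an extracellular nuclease gene, was at 120 and 12.1 CPM, a log2 ratio of -3.30 (-4.11 to -2.58). F8, the coagulation factor VIII gene of sinusoidal ECs, differed by -2.27, Cd36, a fatty acid translocase, by -1.87 and Gas6, a ligand of TAM receptors, by -1.88. In the other non-arterial ECs the log2 ratios were -2.52 for Gpm6a, -2.38 for Dnase1l3, -1.62 for F8, -1.71 for Cd36 and -0.74 for Gas6. Of the sinusoidal markers, 6 of the 11 measured were past 2-fold lower, against 2.67% of all genes, among them Stab2 (-1.16), Mrc1 (-1.48) and Il6st (-1.51), and Madcam1 was past 2-fold higher, with a median of -1.16 against -0.87 in the others. Of the marrow stromal markers 6 of 8 were past 2-fold lower, against the same 2.67% of all genes, with a median of -1.19 against -0.72. Cxcl12 differed by -1.50 and Lepr by -1.16. The share of tip-like cells with rare stromal markers was also smaller in Dach1OE (9.32% against 26.5%). The libraries also differed in stroma itself, with 3957 marrow stromal-like cells among 26466 kept cells in Control and 2089 among 29317 in Dach1OE. Whether this bears on the lower stromal values was not tested. In the cells without rare markers 6 of the 9 sinusoidal and all 6 stromal markers measured were past 2-fold lower, against 3.1% of all genes, with medians of -1.10 and -1.53. Stromal transcripts were not fully removed from these cells. Cxcl12 was still at 3164 CPM in Control and 1224 CPM in Dach1OE, and Adipoq at 635 and 151 CPM. With at least 3 tip genes required, in 23 and 47 cells, the median of the marrow stromal markers was -0.0017 (-0.64 to 0.31) and Adipoq differed by 0.31.

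**Figure D5:**
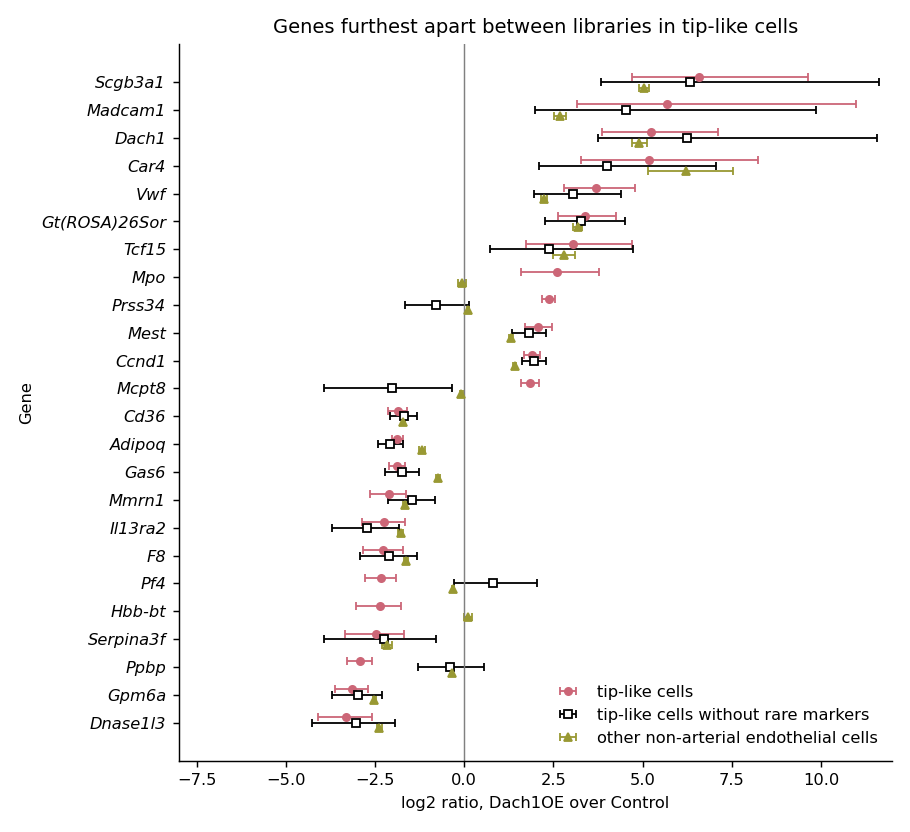
Log2 ratio of CPM, Dach1OE over Control (x axis), for the 12 genes furthest higher and the 12 furthest lower in tip-like cells (y axis), in all tip-like cells (red circles), tip-like cells without rare markers of another type (black squares, left out where an interval had no finite bound) and other non-arterial endothelial cells (olive triangles), with exact conditional 95% intervals. Dach1 lay at 5.22 and Gpm6a at -3.15, and Prss34 and Mcpt8 lay at 2.36 and 1.84 in all tip-like cells but at -0.78 and -2.03 in those without rare markers.

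Arterial markers differed between the libraries in both directions. Of the 8 measured, Gja4, Hey1 and Mgp were past 2-fold higher in Dach1OE and Fbln5 and Vegfc past 2-fold lower, against 2.7% and 2.67% of all genes, with a median of 0.43. Without the cells that carried rare markers 2 of 7 were higher and 1 lower, against 3.48% and 3.1% of all genes, with a median of 0.61. Gja4 was in 14.5% of Control and 40.9% of Dach1OE tip-like cells, at 70.1 and 229 CPM, a log2 ratio of 1.71 (1.33 to 2.10). Outside this list, Ackr3 differed by 1.71 and Sema7a by 1.65, but with at least 3 tip genes required Ackr3 differed by -0.48 (-1.22 to 0.27). The ratios were 1.49 for Gja4, 1.30 for Ackr3 and 1.25 for Sema7a in the cells without rare markers. In the other non-arterial ECs the ratios were 2.18 for Gja4, 2.23 for Ackr3 and 2.44 for Sema7a.

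Within Dach1OE, the 123 tip-like cells with a Dach1 UMI and the 156 without had medians of 4472 and 4212 UMIs. All tip-like cells were divided, those with rare markers of other types included. Nos2, Cxcr4, Esm1, Pgf and Angpt2 chose these cells together, so that their values depend on each other and are a description. Nos2 was at 200 CPM in cells with Dach1 and 138 CPM in cells without, a log2 ratio of 0.54 (0.17 to 0.91), and Cxcr4 at 173 and 129 CPM, a log2 ratio of 0.42 (0.03 to 0.81). Esm1 was at 48.5 and 124 CPM, a log2 ratio of -1.36 (-1.98 to -0.77). Pgf and Angpt2 had log2 ratios of -0.35 and 0.07. Scgb3a1 differed by 1.17, Car4 by 1.37, Vwf by 1.21 and Ccnd1 by 1.17, and Gt(ROSA)26Sor by 1.53. Madcam1 and Cd36 did not follow the difference between the libraries. Madcam1, higher in Dach1OE than in Control, differed by -0.04 (-0.73 to 0.63). Cd36, lower in Dach1OE than in Control, was higher in cells with Dach1, by 0.71 (0.28 to 1.16). Adipoq and Gas6, lower in Dach1OE than in Control, were also lower in cells with Dach1. Adipoq was at 132 against 551 CPM and Gas6 at 84.9 against 238 CPM, log2 ratios of -2.06 and -1.49. In the tip-like cells divided by Nos2 and Esm1, Dach1 itself was at 229 CPM in the Nos2 cells and 48.8 CPM in the Esm1 cells of Dach1OE, a log2 ratio of 2.23 (1.45 to 3.13). Without the cells that carried rare markers it was at 258 and 120 CPM, a log2 ratio of 1.10 (0.17 to 2.20).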

How the data were processed

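Gene expression was measured in single cells of the long bones of Control and Dach1OE mice, 1 library each, with pooled cells of 2 mice per library. The deposited tables hold UMI counts per cell and gene made by the authors in version 1.11 of the BD Rhapsody WTA Analysis Pipeline (per the file headers) on GRCm38 with PhiX and GENCODE vM19, with intronic reads counted. The use of strand was not given in the sources used here. The column of molecules corrected for sequencing errors was used, and 0 columns belonged to other samples. Cells with 500 to 6000 genes and under 25% mitochondrial UMIs were kept (26466 in Control and 29317 in Dach1OE).

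For each library and class, UMIs were added up and scaled to CPM. Intervals are 95% exact Poisson (CPM), Clopper-Pearson (shares), Newcombe (difference of shares) and exact conditional binomial (log2 ratios), and cover counting error only. With 1 library per group no test was made. A gene was measured with at least 50 UMIs over both classes, and a count of 0 was set to 3 counts for a bound. Scrublet, run per library in scanpy 1.11.5, marked 6.53% and 6.60% of kept cells, which were not removed. Thinned values draw 1000 UMIs per cell. Scripts used python 3.11.15, numpy 2.4.6, scipy 1.17.1 and pandas 2.3.3, and edgeR 4.0.16 gave TMM factors as an alternative scaling. The interval script was tested on simulated data.

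The members and the 32 lists (360 genes) were chosen with earlier results of these data known. Genes named over all genes were the 15 highest and 10 lowest against other non-arterial ECs by the smaller of both libraries' log2 ratios, and the 12 highest and 12 lowest between libraries by the interval bound nearest 0, with the same sign in cells of either sex. Mitochondrial, ribosomal protein and sex-linked marker genes were left out of these, and some items are not reported here. Alternatives covered the count column, each limit of the rule, doublets, other cell types, sex, depth and scaling.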

Additional observations from a re-analysis of the deposited data

Results flagged for a closer look

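Aplnr, the apelin receptor gene whose promoter drives the Cre, differed between Dach1OE and Control in opposite directions in cells of either sex. In tip-like cells with Xist and no Y-linked UMI it was at 308 CPM in Control and 457 CPM in Dach1OE, a log2 ratio of 0.57 (0.25 to 0.89). In tip-like cells with a Y-linked UMI and no Xist it was at 481 CPM and 278 CPM, a log2 ratio of -0.79 (-1.18 to -0.41). It was found among 51 genes compared between the sexes. Each sex of a library may come from 1 mouse, so that sex and mouse cannot be told apart, and the difference between the sexes was not tested.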

How the results depend on the processing

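Each setting below changed 1 choice, and values for a list of genes are medians. No paired analysis was possible because there was 1 library per group. Of the main results under the alternatives, 319 values stayed within the spread set for them, 134 moved and 6 changed direction, and of the values for single genes 1115 stayed, 736 moved and 16 changed direction. The setting without cells that carried rare markers, the rules that left out 1 tip gene each and the weighting of the other cells by depth were added after the data had been seen. The cause of the differences was not tested. With mitochondrial UMIs under 10%, the log2 ratio over the other ECs of Control was 2.29 for mural markers, and the log2 ratio over those of Dach1OE was 1.41 for mural markers. With at least 3 tip genes (23 and 47 cells), the share was 0.210% in Control and 0.403% in Dach1OE (0.193 points apart), and Dach1 was in 0% of cells in Control, at 0 CPM in Control and at 88.6 CPM in Dach1OE. Past 2-fold over the other ECs of Control were 4107 higher and 1208 lower genes, and the log2 ratio over the other ECs of Control was 1.38 for other tip cell genes, -1.34 for sinusoidal markers, 1.80 for mural markers, 1.23 for marrow stromal markers and 0.047 for Aplnr. Past 2-fold over those of Dach1OE were 2688 higher and 1178 lower genes, and the log2 ratio over those of Dach1OE was -1.74 for sinusoidal markers, 0.70 for mural markers, 1.70 for marrow stromal markers, 0.46 for stalk and Notch genes and -0.50 for Kcne3. Past 2-fold of Dach1OE over Control were 66 higher and 62 lower genes, and the log2 ratio of Dach1OE over Control was -0.0017 for marrow stromal markers, 0.31 for Adipoq, -0.19 for Pdgfb and -0.48 for Ackr3. With at least 4 endothelial genes, the log2 ratio over those of Dach1OE was 1.60 for marrow stromal markers, and the log2 ratio of Dach1OE over Control was 0.56 for Ppbp. With cells of 2 or more arterial genes kept, the share was 2.51% in Control and 4.05% in Dach1OE (1.54 points apart), and the log2 ratio over the other ECs of Control was 0.997 for other tip cell genes, -1.65 for sinusoidal markers, 0.58 for mural markers, 1.89 for marrow stromal markers, 2.19 for arterial markers and 0.76 for basement membrane and proteolysis. The log2 ratio over those of Dach1OE was -1.40 for sinusoidal markers, 0.69 for mural markers, 1.60 for marrow stromal markers and 2.59 for arterial markers. Without cells marked by Scrublet, the share was 1.05% in Control and 2.01% in Dach1OE, and Dach1 was at 207 CPM in Dach1OE. The log2 ratio over the other ECs of Control was 1.13 for other tip cell genes and 1.75 for mural markers, and the log2 ratio over those of Dach1OE was 0.97 for other tip cell genes, 1.64 for marrow stromal markers, 0.98 for arterial markers and 0.47 for stalk and Notch genes. Past 2-fold of Dach1OE over Control were 122 lower genes, and the log2 ratio of Dach1OE over Control was -0.13 for Mcpt8. Without cells that had 2 markers of a non-endothelial class, rare or not (8 and 22 tip-like cells left), the share was 0.600% in Control and 1.53% in Dach1OE, and Dach1 was in 0% of cells in Control, at 0 CPM in Control and at 301 CPM in Dach1OE. Past 2-fold over the other ECs of Control were 3354 higher and 388 lower genes, and the log2 ratio over the other ECs of Control was 1.83 for other tip cell genes, -1.70 for sinusoidal markers, -0.59 for mural markers, 1.93 for marrow stromal markers, 1.31 for basement membrane and proteolysis and 0.98 for hypoxia and glycolysis. Past 2-fold over those of Dach1OE were 1309 higher genes, and the log2 ratio over those of Dach1OE was 1.38 for other tip cell genes, -1.58 for sinusoidal markers, -1.39 for mural markers, -0.97 for marrow stromal markers, -0.0403 for arterial markers and 0.045 for Aplnr. Past 2-fold of Dach1OE over Control were 8 higher and 15 lower genes, and the log2 ratio of Dach1OE over Control was -0.40 for other tip cell genes, -1.26 for Apln and -0.33 for Pdgfb. In cells with Xist and no Y-linked UMI, the share was 2.78% in Dach1OE, and the log2 ratio over the other ECs of Control was -1.39 for sinusoidal markers and 1.59 for mural markers. The log2 ratio over those of Dach1OE was -1.26 for sinusoidal markers and 0.70 for mural markers, and the log2 ratio of Dach1OE over Control was -0.85 for sinusoidal markers. In cells with a Y-linked UMI and no Xist, Dach1 was in 0% of cells in Control, at 0 CPM in Control and in 54.7% of cells in Dach1OE, and the log2 ratio over the other ECs of Control was -0.62 for sinusoidal markers, 1.58 for mural markers and 0.24 for Aplnr. The log2 ratio over those of Dach1OE was 1.79 for mural markers, 2.07 for marrow stromal markers and -0.022 for stalk and Notch genes, and past 2-fold of Dach1OE over Control were 102 higher and 102 lower genes. With cells thinned to 1000 UMIs before the rule was applied, 38 and 55 tip-like cells were left. The share was then 0.356% in Control and 0.486% in Dach1OE (0.130 points apart, an interval that includes 0). Dach1 was at 26.3 CPM (0.67 to 147) in Control, in 18.2% of cells in Dach1OE and at 218 CPM (113 to 381) in Dach1OE. Past 2-fold over the other ECs of Control were 5045 higher genes, and the log2 ratio over the other ECs of Control was 1.49 for other tip cell genes, -2.06 for sinusoidal markers, 0.48 for mural markers, 0.84 for basement membrane and proteolysis, -2.70 for Rgs5 and 0.20 for Flt1. Past 2-fold over those of Dach1OE were 3886 higher genes, and the log2 ratio over those of Dach1OE was 1.10 for other tip cell genes, -1.85 for sinusoidal markers, 0.27 for mural markers, 1.71 for arterial markers, 0.52 for stalk and Notch genes, -0.70 for Kcne3, -0.49 for Ednrb and 0.069 for Kdr. Past 2-fold of Dach1OE over Control were 9 higher and 7 lower genes. With the mean of per-cell CPM, the log2 ratio over the other ECs of Control was 0.96 for other tip cell genes and -1.37 for sinusoidal markers, and the log2 ratio over those of Dach1OE was -1.40 for sinusoidal markers and 1.58 for marrow stromal markers. With no filter on low counts, past 2-fold over the other ECs of Control were 12135 higher genes, and past 2-fold over those of Dach1OE were 10741 higher genes. Past 2-fold of Dach1OE over Control were 994 higher and 3032 lower genes. Without cells that had 2 rare markers, the share was 0.867% in Control and 1.69% in Dach1OE, and Dach1 was in 51.9% of cells in Dach1OE and at 229 CPM in Dach1OE. Past 2-fold over the other ECs of Control were 1537 higher genes, and the log2 ratio over the other ECs of Control was 1.27 for other tip cell genes, -1.32 for sinusoidal markers, -0.077 for mural markers and 1.93 for marrow stromal markers. The log2 ratio over those of Dach1OE was 0.98 for other tip cell genes, -1.34 for sinusoidal markers, 0.045 for mural markers, 0.63 for marrow stromal markers and 0.66 for arterial markers, and past 2-fold of Dach1OE over Control were 116 lower genes. The log2 ratio of Dach1OE over Control was -1.53 for marrow stromal markers. With 1 tip gene left out the shares were 1.10% and 1.70% without Pgf, 1.13% and 1.29% (0.161 points apart) without Nos2, 1.11% and 1.58% (0.472 points apart) without Cxcr4, 0.768% and 1.98% without Esm1 and 0.869% and 1.43% without Angpt2. Depth limits the rule, since a cell of few UMIs has less chance of 2 tip genes, and in single genes of few UMIs the interval is wide.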
